A study of Mus musculus with 36 samples.

Results

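The enzymes that break down the branched-chain amino acids leucine, isoleucine and valine were described in 3 tissues of mice given an amino acid mixture or water. The members were the 10 genes Bcat2, Bckdha, Bckdhb, Dbt, Bckdk, Ivd, Mccc1, Mccc2, Hibadh and Aldh6a1. They were taken as every probe set whose only platform symbol was one of these names, which gave 16 of 45037 probe sets and 10 of 18193 gene symbols. CAAM mice had received by gavage, once a day for 5 administrations, a 1.8% solution of amino acids in the proportions of casein at 37.5 µL/g body weight, and DW mice had received the same volume of water. Liver, brown adipose tissue (BAT) and white adipose tissue (WAT) were taken 4 h after the last dose from 5 CAAM and 7 DW mice, each with 1 array of all 3 tissues. All were male ddY mice, an outbred stock, that arrived at 5 weeks of age and acclimated for 1 week, and food was removed from both groups before they were killed. The study's methods state that CAAM mice with abnormal liver morphology were left out, so the CAAM group is a selected one, and the same mouse number in CAAM and DW is not the same animal.

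These enzymes sit in the mitochondrial matrix. BCAT2 moves the amino group off all 3 amino acids. The branched-chain keto acid dehydrogenase complex, built from the alpha and beta subunits BCKDHA and BCKDHB, the transacylase DBT and a shared dihydrolipoamide dehydrogenase, then removes the carboxyl group in the step that commits the carbon to oxidation. The kinase BCKDK switches the complex off by phosphorylating the alpha subunit, and the phosphatase PPM1K switches it on. Beyond this step the pathways part: IVD and the carboxylase made of MCCC1 and MCCC2 act on leucine, while HIBADH and ALDH6A1 act on valine. Liver is known for high activity of the dehydrogenase complex and little of the aminotransferase, and brown fat is known to burn these amino acids during thermogenesis.

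The promoters below are shown because they belong to the member with the largest difference between brown and white fat, the kinase that was lowest in liver, and a leucine enzyme with 4 matches to the CCAAT box. Each runs 5′ to 3′ from 250 bases before to 50 bases after the start site in RefSeq on GRCm38.p6, with CCAAT or its reverse complement ATTGG in capitals. The Bckdha promoter (chr7:25658712-25659011, minus strand) holds no match, the Bckdk promoter (chr7:127903823-127904122, plus strand) holds 1 and the Ivd promoter (chr2:118861744-118862043, plus strand) holds 4.
Bckdha: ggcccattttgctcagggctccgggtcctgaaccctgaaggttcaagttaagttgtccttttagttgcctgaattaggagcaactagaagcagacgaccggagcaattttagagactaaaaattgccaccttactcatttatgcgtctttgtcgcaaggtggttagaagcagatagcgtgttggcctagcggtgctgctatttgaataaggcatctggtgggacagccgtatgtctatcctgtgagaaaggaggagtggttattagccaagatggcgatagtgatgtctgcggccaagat
Bckdk: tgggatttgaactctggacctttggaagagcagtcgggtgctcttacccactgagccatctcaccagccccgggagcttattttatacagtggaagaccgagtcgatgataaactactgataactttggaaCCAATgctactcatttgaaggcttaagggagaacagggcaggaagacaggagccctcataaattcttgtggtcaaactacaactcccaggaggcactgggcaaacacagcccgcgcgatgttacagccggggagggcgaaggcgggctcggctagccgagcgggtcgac
Ivd: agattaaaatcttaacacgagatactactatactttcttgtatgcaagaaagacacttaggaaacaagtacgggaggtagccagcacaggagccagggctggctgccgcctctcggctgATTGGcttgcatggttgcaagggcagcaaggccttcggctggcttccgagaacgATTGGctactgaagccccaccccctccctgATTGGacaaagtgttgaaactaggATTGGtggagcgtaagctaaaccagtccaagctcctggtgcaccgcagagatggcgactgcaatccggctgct

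The table of promoters held 12 promoters of 9 members and none of Dbt. CCAAT, searched on both strands as were all motifs, was found in promoters of 7 of these 9 genes and in 9 of the 12 promoters, against 37.4% of 32851 promoters of the same length. Mccc1 and Mccc2 held 3 matches each in 1 promoter, and Ivd and Aldh6a1 held 4. TATAAA was found in 1 of the 12 promoters, that of Bckdk, against 13.6% of all promoters, and CCGCCC in 3 of 12 against 35.7%. AGGTCA, a half-site of nuclear receptors, was found in 3 of 12 against 16.3%, and its extended form AAGGTCA, which overlaps it, in 0 of 12 against 4.72%. CACGTG was found in 1 of 12, the Mccc2 promoter, against 7.15%. GGGTGGGG was found in 2 of 12, of Ivd and Mccc1, against 9.99%, and ACTACAA in 1 of 12, that of Bckdk, against 3.24%. Found in 0 of 12 were TCAAGGTCA, which contains AAGGTCA (0.423% of all promoters), CCACACCC (3.56%), TGACCTTTG, which overlaps the reverse complement of AAGGTCA (0.478%), TGACGTCA (1.79%), CTTCCGG (8.86%) and CACTTCCGG, which contains it (2.03%). The NRF1 site was also searched, in a fixed form and with 1 free base, and is not counted here. CCAAT was chosen for display after these counts were seen, and a match describes letters in a window and no binding.

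Each value is a distribution free weighted (DFW) score, which is not a log2 value. For most probe sets the method compresses how far arrays of 1 tissue can differ, by an amount that varies with the probe set. Some probe sets keep a wide spread. The median SD between arrays of a tissue was 1.08e-05 in liver, 7.38e-06 in BAT and 1.42e-05 in WAT, so differences between mice are not log2 fold changes and no folds are given. The sorted scores differ between tissues more than within them, from which it was inferred that each tissue was normalized on its own. A difference between tissues is then set across 3 separately normalized sets of arrays. The 3 hepatocyte markers measured were above the array median on every liver array, and the 3 brown adipocyte markers were above it on every BAT array and on no WAT array. The 3 adipocyte markers and leptin were above it on every WAT array, and on every BAT array too. Above it as well were 2 of 3 hepatocyte markers on every WAT array. On every liver array 2 of 3 adipocyte markers and 1 of 3 brown adipocyte markers were above it. Skeletal muscle RNA differed between BAT arrays, with a summed score of 8 muscle genes of 53.1 to 86.0 in CAAM mice and 55.1 to 90.2 in DW mice, highest in CAAM mouse 2 and in DW mice 1, 3 and 7. Summed scores of 6 genes of the male tract ran from 38.1 to 53.7 in WAT of CAAM mice and from 41.8 to 66.2 in WAT of DW mice.

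The first comparison asked how the enzymes are distributed over the 3 tissues. In DW mice the alpha subunit and the transacylase of the dehydrogenase complex were highest in BAT, the beta subunit was highest in liver, and the kinase was lowest in liver. Bckdha averaged 11.62 in BAT, against 10.82 in liver and 9.81 in WAT. Dbt had the same order, at 11.25 in BAT, 10.55 in liver and 9.89 in WAT. Bckdhb scored 11.90 in liver, 11.32 in BAT and 11.05 in WAT. Bckdk scored 9.81 in BAT, 8.97 in WAT and 7.96 in liver. Bcat2, the aminotransferase, scored 6.62 in liver, against 7.04 in BAT and 7.12 in WAT, and was below the array median on all 7 liver arrays of DW mice. Percentiles among all probe sets placed the other members of the DW liver between 78.1 for Bckdk and 99.2 for Hibadh.

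**Figure D1:**
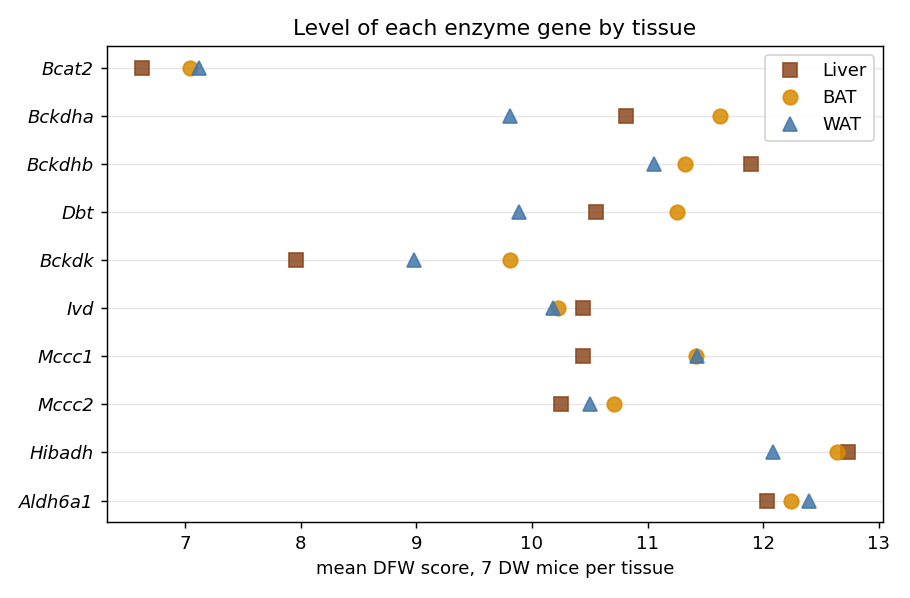
Mean DFW score of the representative probe set of each enzyme gene (x axis, score units) in liver, BAT and WAT of 7 DW mice; the spread between mice is smaller than the symbols. Bckdha runs from 9.81 in WAT to 11.62 in BAT, while Bckdk is lowest in liver at 7.96.

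Between the fats, Bckdha was 1.81 score units higher in BAT than in WAT (SE 4.39e-05, n = 7 mice) and Dbt was 1.37 higher (SE 3.33e-05). Both were called by limma at an adjusted p under 0.05 and a difference of at least 1 score unit. For Bckdha the 7 DW mice lay between 1.8144 and 1.8147, and for Dbt between 1.3672 and 1.3675, a narrow spread that is on the compressed scale of the scores. Adjusted p alone was passed by 99.7% of all probe sets, and the size limit therefore decides the call. Of the 10 members 2 were called higher and 0 lower, against 1.77% of all probe sets called higher and 4.9% called lower. Among the 22518 brighter probe sets these shares were 3.42% and 9.17%. Bckdk was 0.83 higher in BAT, Hibadh 0.55, Bckdhb 0.27, Mccc2 0.21 and Ivd 0.04, all short of the limit. Mccc1 differed by -0.01, Bcat2 by -0.07 and Aldh6a1 by -0.16. Quantile normalization of all arrays turned Bcat2 to 0.12 and Mccc1 to 0.06, and took Bckdk to 1.12, past the limit. The median over the members was 0.24, against -0.09 over all probe sets, which median centring moved upward by 0.135 and quantile normalization by 0.104. Quantile normalization also changed the calls over all probe sets to 1199 higher and 1343 lower, against 798 and 2206 as deposited.

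In liver against WAT the alpha subunit of the complex was higher and the kinase that phosphorylates it was lower. Bckdha was 1.01 score units higher in liver (SE 4.64e-05), and Bckdk was lower there (-1.01, SE 8.77e-06), both called. These were 1 of 10 members higher, against 3.96% of all probe sets, and 1 of 10 lower, against 8.34%. Among the 22518 brighter probe sets these shares were 7.36% and 15.5%. Adjusted p alone was passed by 99.8% of probe sets. Both calls lie just past the limit, and the Bckdk call was lost after median centring (-0.90), after quantile normalization (-0.75) and with the mean of both its probe sets (-0.79). Mccc1, the biotin-carrying subunit, was just inside the limit at -0.99, with -0.05 on its other probe set, and quantile normalization took it to -1.06, past the limit, where 6.3% of all probe sets were called lower. Bckdhb was 0.84 higher in liver, Dbt 0.67, Hibadh 0.65 and Ivd 0.26, while Bcat2 differed by -0.49, Aldh6a1 by -0.36 and Mccc2 by -0.26. Median centring moved all liver minus WAT differences upward by 0.109 at the median, and quantile normalization changed the calls over all probe sets to 2230 higher and 2836 lower, against 1782 and 3755. For Mccc2 the other probe sets gave 0.25 and 0.32, so its direction depends on the probe set.

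In liver against BAT, Bckdk stood lower (-1.84 score units, SE 8.24e-06) and was the only member called, with -1.24 on its other probe set. That is 0 of 10 members higher, against 5.02% of all probe sets, and 1 of 10 lower, against 4.59%. Among the 22518 brighter probe sets these shares were 9.35% and 8.92%. Adjusted p alone was passed by 99.9% of all probe sets. Mccc1 differed by -0.98, although its other, dimmer probe set gave 0.21. Bckdha differed by -0.81, Dbt by -0.70, Mccc2 by -0.46, Bcat2 by -0.42 and Aldh6a1 by -0.21. Bckdhb was 0.57 higher in liver, Ivd 0.21 and Hibadh 0.09. On other probe sets Ivd gave -0.03, Hibadh -0.04, and Mccc2 0.17 and -0.02, so their directions depend on the probe set. With quantile normalization 3 members were called lower, Bckdk, Mccc1 and Bckdha, against 5.25% of all probe sets under that setting. The differences in the 5 CAAM mice gave the same member calls in each of the 3 contrasts.

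**Figure D2:**
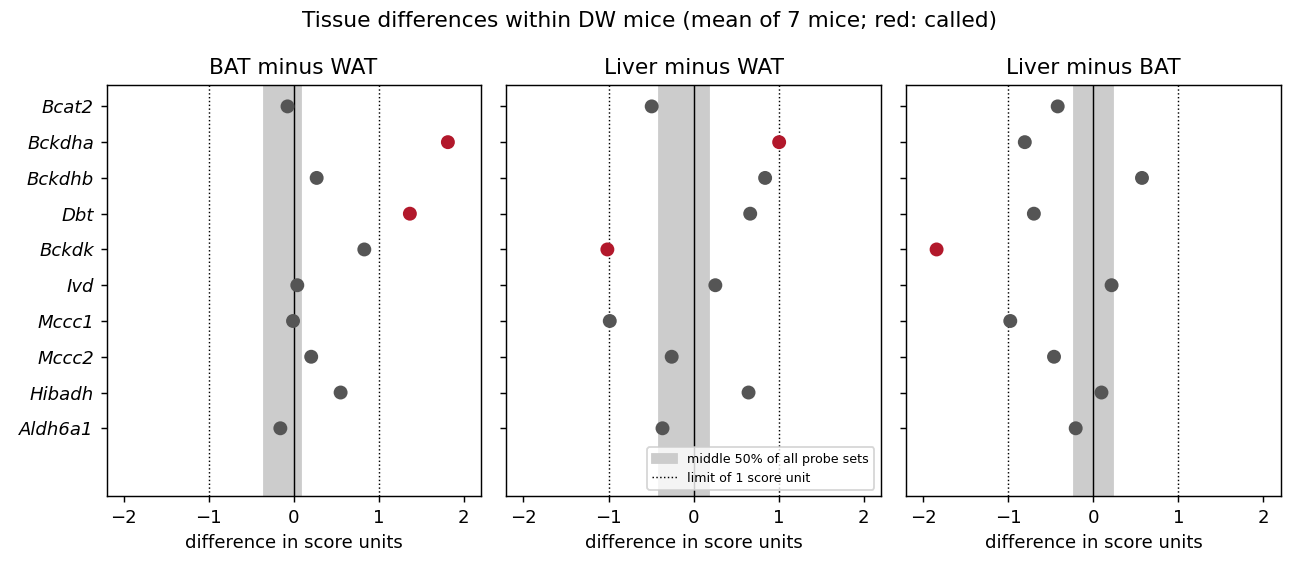
Difference of each enzyme gene between tissues of the same DW mouse (x axis, score units, mean of 7 mice) for BAT minus WAT, liver minus WAT and liver minus BAT; red points were called, dotted lines mark 1 score unit and the grey band holds the middle 50% of all probe sets. Bckdha and Dbt lie at 1.81 and 1.37 in BAT minus WAT, and Bckdk lies at -1.84 in liver minus BAT.

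The other genes of the pathway were taken from a list of 22, of which 20 were measured. In BAT against WAT 6 of them were called higher and 2 lower, against 1.77% and 4.9% of all probe sets. Their median difference was 0.80. Dld, the dihydrolipoamide dehydrogenase that the complex shares with pyruvate dehydrogenase, was 1.68 higher in BAT. Echs1 and Pccb, a hydratase and a propionyl-CoA carboxylase subunit further down, were each 1.43 higher, and Hibch, the hydrolase of the valine branch before HIBADH, was 1.22 higher. Slc3a2, the heavy chain of the transporter that brings leucine into cells, differed by -1.20. With the mean of all probe sets of a gene, Dld was 0.83 and Hibch 0.43. Quantile normalization took Slc3a2 to -0.90, and these values are short of the limit. Ppm1k, the phosphatase that opposes the kinase, ran against Bckdk: it was 2.51 higher in liver than in WAT and 2.04 higher in liver than in BAT. Oxct1, the enzyme that activates ketone bodies for oxidation, was lower in liver than in BAT (-4.75 score units), and Abat, a 4-aminobutyrate aminotransferase, was 5.15 higher. Mean scores of Ppm1k were 11.02 in liver, 8.98 in BAT and 8.50 in WAT, so the kinase was lowest and the phosphatase highest in the same tissue.

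Neighbouring mitochondrial oxidation genes had larger median differences between the fats than the breakdown enzymes. Of 15 citrate cycle genes 12 were called higher in BAT than in WAT, with a median difference of 1.92, and of 10 pyruvate dehydrogenase genes 6 were, with a median of 1.53. Among all probe sets 1.77% were called higher. Cs, citrate synthase, was 1.88 higher in BAT, Idh3a, the catalytic subunit of isocitrate dehydrogenase, 2.13, and Sdhd, a membrane subunit of succinate dehydrogenase, 4.26, though only 2.27 in CAAM mice. Among the dehydrogenase genes the kinase Pdk4 was 4.13 higher, Dlat, the transacylase that corresponds to DBT, 2.48, and Pdha1 1.66. Medians of these lists are descriptions, and their difference was not tested. The 8 skeletal muscle genes were also higher in BAT, 5 of them called, with a median of 2.09, and their part in these differences was not tested. Without DW mice 1, 3 and 7, whose BAT arrays were the highest in muscle genes, Bckdha and Dbt were called as before.

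**Figure D3:**
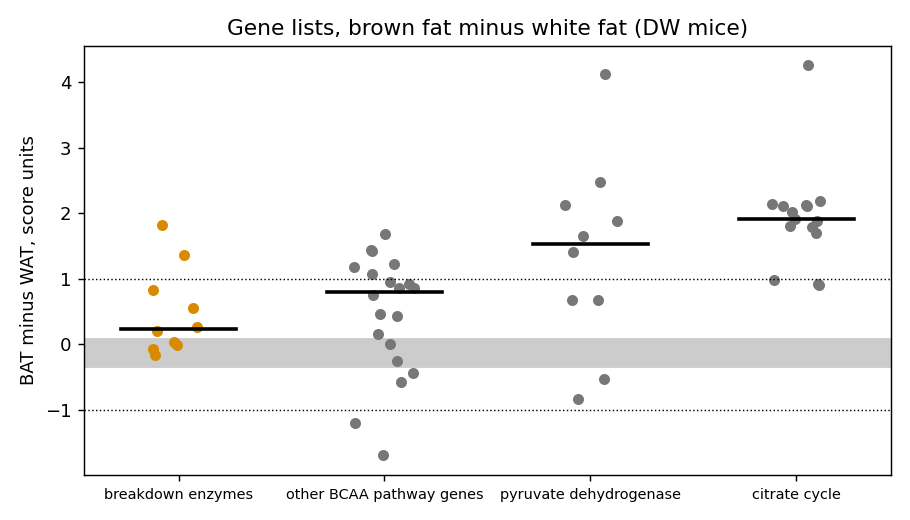
BAT minus WAT difference in DW mice (y axis, score units, mean of 7 mice) for each gene of 4 lists, with the list median as a black line, the limit of 1 score unit dotted and the middle 50% of all probe sets in grey. The breakdown enzymes have a median of 0.24, against 1.92 for the citrate cycle.

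The second comparison asked whether 5 daily doses of the casein-like mixture changed the enzymes within each tissue. No member was called in liver, BAT or WAT. Rank products, the test of the study's methods, called 0 of 10 members in each tissue, against 2.67% of all probe sets in liver, 3.16% in BAT and 2.62% in WAT. In liver, BAT and WAT, 98.6%, 97.4% and 96.6% of those called probe sets lay in the top 10% of within-group SD, where none of the 10 representative probe sets lay. limma called 0% of all probe sets in each tissue and 0 members. At an unadjusted p under 0.05 limma passed 1232 probe sets higher and 1815 lower in liver. In BAT 1696 and 1190 passed, and in WAT 885 and 899. Of the 10 representative probe sets 2 passed, those of Mccc1 and Ivd, both higher in BAT. The other probe sets of Ivd and Mccc2 passed there as well, all of them higher. The CAAM and DW values of all 10 representative probe sets overlapped in every tissue, as did those of all but 0.442% of probe sets in liver, 0.329% in BAT and 0.222% in WAT.

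Sizes are given as standardised differences, the CAAM mean minus the DW mean divided by the SD within groups. Among the members in BAT the leucine enzymes stood at the top and the kinase at the bottom. Of the 10 members 9 had a higher mean, with a median of 0.83, against 49.2% of all probe sets higher and a median of -0.01. The other pathway genes were similar, with 16 of 20 at a higher mean and a median of 0.75, so this was not particular to the members. Ivd measured 0.31, 2.96, 0.68, 1.90 and 1.45 SD units from the DW mean in the 5 CAAM mice, and -1.94, 0.18 and 0.91 at the lowest, median and highest of 7 DW mice. All 5 CAAM mice were above the DW median, with a standardised difference of 1.46 (limma adjusted p = 0.729) and 1.52 on its other probe set. Mccc1 measured 1.29, 1.47, 1.06, 1.71 and 1.93 in CAAM mice, against -1.72, 0.28 and 1.30 at the lowest, median and highest of DW mice. Of the 5 CAAM mice 3 lay above every DW mouse, with a standardised difference of 1.49 (limma adjusted p = 0.723) but 0.68 on its other probe set.

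Mccc2, the partner subunit, measured -0.50, 1.81, 1.24, 1.60 and 1.86 in BAT of CAAM mice, against -1.36, -0.34 and 1.37 in DW mice. It differed by 1.20 (limma adjusted p = 0.796), and by 1.64 and 1.36 on its other probe sets. On the valine branch Hibadh differed by 1.11 and Aldh6a1 by 0.58. Within the complex Dbt differed by 0.94, Bckdha by 0.72 and Bckdhb by 0.21, and Bcat2 differed by 0.53. Bckdk was the exception, at -0.33, -1.10, -1.37, -1.08 and -1.69 in CAAM mice, against -2.07, 0.43 and 1.02 at the lowest, median and highest of DW mice. No CAAM mouse was above the DW median for the kinase, and the standardised difference was -1.11 (limma adjusted p = 0.827).

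**Figure D4:**
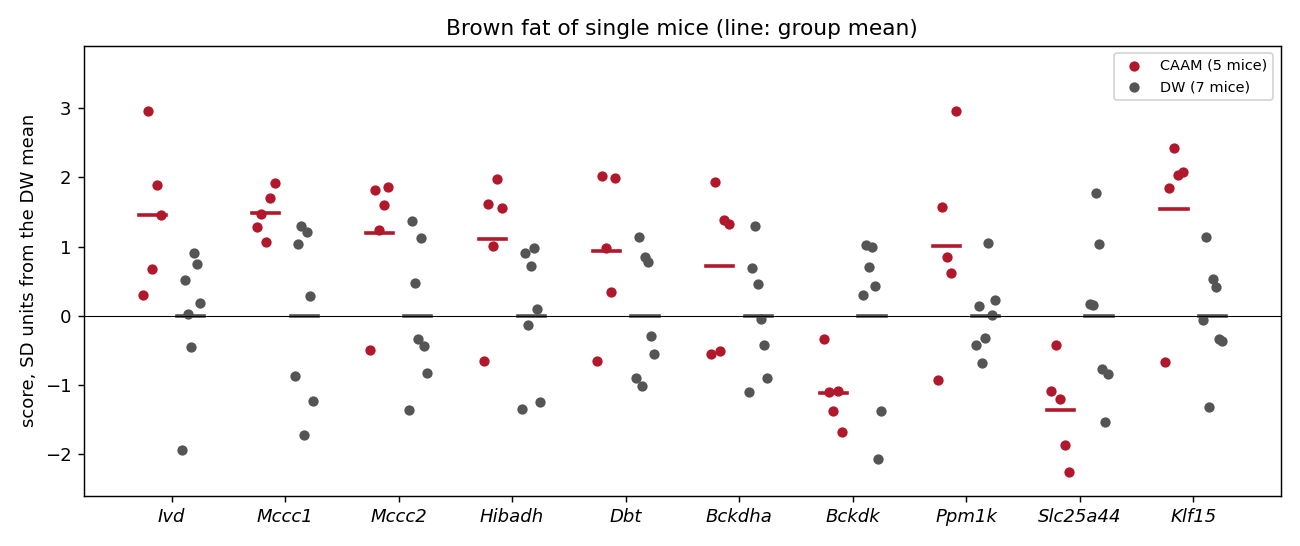
BAT of single mice for 7 members and 3 further pathway genes (y axis, SD units from the DW mean; CAAM in red at the left of each pair, DW in grey at the right, line at the group mean). CAAM mouse 2 is the first red point of each gene and lies apart from the other CAAM mice for Mccc2, Hibadh and Klf15.

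CAAM mouse 2, the CAAM mouse with the most muscle RNA in BAT, was the lowest of the 5 CAAM mice for 8 of the 10 members in that tissue, all but Mccc1 and Bckdk, and the highest for Bckdk. Without it the member median was 1.42, and without the 4 BAT arrays highest in muscle genes it was 1.19, with 0 members called in either case. Without CAAM mouse 2 limma called 4 of all probe sets higher and 1 lower, no representative probe set of a member among them. The 8 muscle genes were themselves at a lower mean in BAT of CAAM mice. Rank products called 7 of them lower, against 3.16% of all probe sets called in either direction. Their median standardised difference was -0.49, and limma called 0 of them. All 5 macrophage genes were at a lower mean too and 3 were called by rank products, with summed scores of 37.30 to 37.35 in CAAM mice and 37.29 to 37.43 in DW mice. The part of either list in the member values was not tested. The BAT direction also rests on the scaling: quantile normalization put 97.4% and median centring 98.5% of all probe sets at a higher mean in CAAM mice, and turned Bckdk to 0.31 and 0.89.

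In liver all 10 members had a lower mean in CAAM mice, with a median of -0.56, against 44.5% of all probe sets higher and a median of -0.09. Bckdhb measured -1.49, -1.89, -1.97, -0.12 and -2.27 in CAAM mice, against -1.28, -0.28 and 1.33 at the lowest, median and highest of DW mice. Its standardised difference was -1.55 (limma adjusted p = 0.873), on a probe set whose within-group SD lay at percentile 0.466 of the table. Hibadh differed by -1.03, Ivd by -0.87, Mccc1 by -0.68, Bckdha by -0.66 and Mccc2 by -0.46, and the remaining members lay at -0.29 or nearer to 0. Quantile normalization left no difference to measure for Bckdhb, Hibadh and Aldh6a1, which held 1 rank on all 12 liver arrays, and turned 1 of the other 7, Mccc2, to a higher mean. Over all probe sets with any spread it put 20.4% at a higher mean in CAAM mice, and median centring 4.35%. In the same livers 5 of 5 macrophage genes had a higher mean in CAAM mice and 4 were called by rank products, with summed scores of 43.00 to 43.06 in CAAM mice and 42.96 to 43.01 in DW mice, and their part in the member values was not tested. Of the 3 hepatocyte markers 2 had a higher and 1 a lower mean in CAAM mice, and the mean of the list lay 0.04 SD units from that of DW mice. In tissue samples, fewer cells of a type and less RNA per cell cannot be told apart.

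In WAT 8 members had a higher and 2 a lower mean, with a median of 0.25, against 51.1% of all probe sets higher and a median of 0.01. The extremes were Mccc1 at 0.70 and Bckdhb at -0.24, all with limma adjusted p = 1. The WAT median rested on single mice, at 0.76 without CAAM mouse 6 and 0.04 without CAAM mouse 4, and was 0.53 without the arrays of CAAM mice 6 and 7 and DW mice 1 and 2. The CAAM effect was also compared between tissues of the same mice, and 0% of all probe sets were called in each of BAT minus WAT, liver minus WAT and liver minus BAT. The lowest limma adjusted p among the members was 0.967, 0.906 and 0.736 in these 3 comparisons, so the opposite signs in BAT and liver are not shown to differ.

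**Figure D5:**
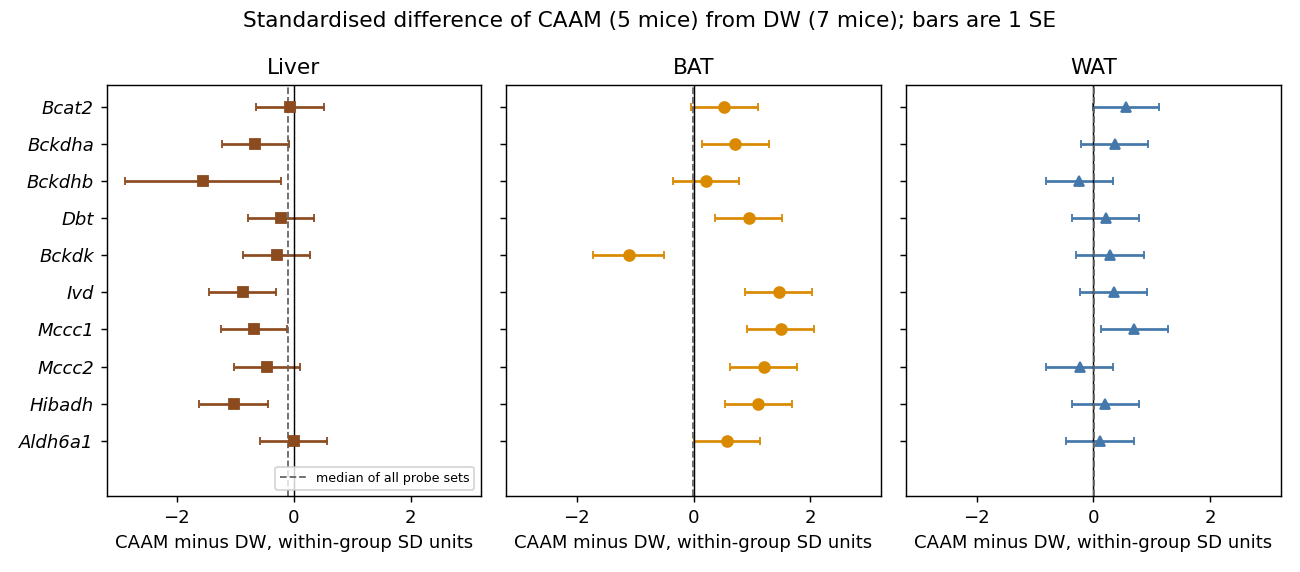
Standardised difference of CAAM (5 mice) from DW (7 mice) for each enzyme gene (x axis, within-group SD units, bars 1 SE) in liver, BAT and WAT; dashed lines give the median of all probe sets. The 10 liver values lie at or below 0 and 9 of the 10 BAT values above it, with Bckdk at -1.11.

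Of the 20 other pathway genes measured, rank products called 1 in liver, 2 in BAT and 2 in WAT, and limma called 0. Rank products called 2.67% of all probe sets in liver, 3.16% in BAT and 2.62% in WAT. The 5 calls among the pathway genes and Slc25a44 were singled out after their values were seen. Klf15, a transcription factor known to raise branched-chain amino acid breakdown in mouse muscle, was called higher in liver (standardised difference 0.80, limma adjusted p = 0.838) and in BAT (1.54, limma adjusted p = 0.718). In BAT it measured -0.67, 1.84, 2.43, 2.04 and 2.08 in CAAM mice, against -1.33, -0.06 and 1.13 at the lowest, median and highest of DW mice, so 4 of 5 CAAM mice were above every DW mouse. Leaving out 1 mouse gave 1.32 without CAAM mouse 5 to 3.17 without CAAM mouse 2 in BAT, and 0.51 without CAAM mouse 6 to 1.85 without CAAM mouse 5 in liver. Ppm1k was called higher in BAT (1.02, limma adjusted p = 0.838), but by only 10 of 19 alternatives, against 18 of 19 for Klf15 in BAT and 16 of 18 for Klf15 in liver. In WAT the calls were lower ones, Slc7a5, the light chain of the leucine transporter (standardised difference -0.67), and Abat (-0.74). For each of them 2 of 5 CAAM mice were above the DW median, and their calls were not counted over the alternatives. All 5 calls lay in the top 10% of within-group SD.

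Slc25a44, the mitochondrial carrier for branched-chain amino acids in brown fat, was lower in mean in BAT of CAAM mice on all 3 of its probe sets. On 1 of them the groups did not overlap, as on 0.329% of all probe sets in BAT. That probe set measured -1.58, -1.90, -1.71, -2.82 and -3.82 SD units in CAAM mice, against -1.21, -0.16 and 1.55 at the lowest, median and highest of DW mice. Its standardised difference there was -2.37 (limma adjusted p = 0.645), and on the other probe sets -1.37 and -1.49. No CAAM mouse was above the DW median on any of the 3. Quantile normalization turned the representative probe set to 0.23 and median centring to 0.89. The carrier was thus on the same side as Bckdk in BAT, and neither passed the test.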

How the data were processed

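Affymetrix mouse genome arrays were quantified by the authors with the DFW method in Bioconductor (R 2.7.2, according to the submission notes), and the deposited values are 1 score per probe set and array. The study's methods name a slightly earlier release. Of 45101 probe sets 64 controls were left out. By the platform annotation, 34945 probe sets had 1 symbol, 932 several and 9160 none. Where a gene had several probe sets, the one with the highest mean of the 3 DW tissue means stood for it. Rank products over all pairs of a CAAM and a DW array of a tissue used 100 permutations (20 for alternatives) with calls at an estimated false positive share below 0.05. limma 3.58.1 in R 4.3.3 (lmFit, eBayes) gave two-sided Benjamini-Hochberg adjusted p over 45037 probe sets. Tissue differences were tested within mice. The design had assumed log2 values, which these scores are not, and its tests were kept. Both tests were tested on simulated data with planted differences larger in SD units than those of the members. The simulation therefore does not show what they miss at the sizes of the members. Members, lists and alternatives were chosen with earlier results of these data known. All 10 members were named, with up to 8 other pathway genes and up to 3 of each comparison list by largest tissue difference. Figures used matplotlib 3.10.9. The number of arrays limits the precision, and limma p-values measure the spread between these mice. Rank products permuted probe sets within each array, so its calls do not measure that spread. Some probe sets were called in both directions: in liver, 729 higher and 531 lower calls fell on 1202 probe sets.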

Additional observations from a re-analysis of the deposited data

Results flagged for a closer look

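Of 60 groups of member values tested by Dixon's criterion, 4 held a sample far from the others, where chance flags about 1 in 20 groups. In WAT, CAAM mouse 6 was low for Dbt at -2.172 SD units from the DW mean, with the other CAAM mice between 0.47 and 1.48. The same mouse was low for Mccc2 at -2.585, with the others between 0.00 and 0.72. In BAT, CAAM mouse 2 was low for Mccc2 at -0.4986 and for Aldh6a1 at -1.356, with the other CAAM mice at 1.24 and above for Mccc2 and at 0.64 and above for Aldh6a1. The WAT array of CAAM mouse 6 had the highest summed male-tract score of the CAAM group, 53.7, and the BAT array of CAAM mouse 2 the highest summed muscle score, 86.0. The part of either in these values was not tested.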

How the results depend on the processing

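Every setting of the CAAM comparison left 0 members called by limma, and rank products left 0 except in liver without CAAM mouse 2, where 1, Mccc1, was called lower, against 1.26% of all probe sets (0 to 1 members over the mice left out). Without being called, standardised differences changed sign as follows. Quantile normalization acts on ranks, and the members spanned 0 to 6 ranks over the liver arrays, 5 to 33 over BAT and 13 to 81 over WAT, so its values rest on few rank steps. Bckdhb, Hibadh and Aldh6a1 had the same value on all liver arrays and got none. It turned Mccc2 in liver to 0.3102, Bckdhb in WAT to 0.1001, Mccc2 in WAT to 0.1569, Bckdk in WAT to -0.07683, Bckdk in BAT to 0.3122 and Slc25a44 in BAT to 0.2285. Median centring turned Bckdhb in WAT to 0.118, Mccc2 in WAT to 0.1461, Bckdk in BAT to 0.8926 and Slc25a44 in BAT to 0.8909. Without the WAT arrays of CAAM mice 6 and 7 and DW mice 1 and 2, left out for their male-tract genes although CAAM mouse 7 was not among the 4 highest summed scores, Bckdhb was 0.1367, Mccc2 0.393 and Aldh6a1 -0.6423. The mouse number only names a mouse and pairs no animals of the treatments. With it as a replicate block, over the numbers both treatments share, Bcat2 in liver was 0.1361, Bckdk in liver 0.2501, Ivd in WAT -0.01786, Hibadh in WAT -0.06325, Aldh6a1 in WAT -0.7826 and Bckdhb in BAT -0.3845, and the block left 0 members called. The cause of these changes was not tested.

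Leaving out 1 mouse at a time gave ranges across 0 in liver for Bcat2 (-0.5196 to 0.3595), Dbt (-0.7307 to 0.06123), Bckdk (-0.5378 to 0.08994) and Aldh6a1 (-0.371 to 0.2358). In WAT they were -0.6302 to 0.5467 for Bckdhb, -0.1088 to 1.415 for Dbt, -0.1056 to 0.5234 for Bckdk, -0.01415 to 0.8506 for Ivd, -0.48 to 0.5965 for Mccc2 and -0.2898 to 0.425 for Aldh6a1. In BAT Bckdhb ran from -0.1606 to 0.6454.

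Between tissues, a limit of 2 score units left 0 members called in each contrast. In liver minus WAT, median centring and the mean of all probe sets of a gene each left 1 called, against 2. In liver minus BAT, quantile normalization gave 3 and median centring 2, against 1 (5.25% and 4.82% of all probe sets lower). Quantile normalization turned Bcat2 and Mccc1 in BAT minus WAT to 0.1153 and 0.05877 and Hibadh in liver minus BAT to -0.08469. Median centring turned the first 2 to 0.06307 and 0.1277, and the mean of all probe sets turned Mccc2 in liver minus WAT to 0.1046. Leaving out any DW mouse, or the mice whose fat arrays were high in male-tract or muscle genes, changed no member call between tissues. Dim Bcat2 in liver limits what its values can show.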
